A study of Mus musculus with 6 samples.

Results

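The dependence of the R848 response on Irak2 was measured in mouse macrophages as a difference of 2 responses. R848, also called resiquimod, is a synthetic imidazoquinoline ligand of mouse Toll-like receptor 7. For each gene, the log2 value of untreated knockout cells was taken from that of R848-treated knockout cells, the wild-type response was formed in the same way, and the wild-type response was subtracted from the knockout response. A negative difference means that the knockout response lies below the wild-type response. The comparison used 4 of the 6 arrays of the series and the 6984 of 16593 named genes that were detected (detection p under 0.01) on at least 1 of these 4 arrays. The groups were Irak2-deficient macrophages treated with R848, untreated Irak2-deficient macrophages, wild-type macrophages treated with R848 and untreated wild-type macrophages, with 1 array each. Bone marrow of female 129/BL6 mice had been cultured for 5 days with L929-conditioned medium, a source of the macrophage growth factor M-CSF, and R848 was given at 1 µg/ml for 2 h. The other 2 arrays of the series held cells of each genotype treated with CpG B, an oligonucleotide ligand of Toll-like receptor 9. The sources used here give neither the number of mice or cultures behind an array nor the deleted part of Irak2.

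Toll-like receptor 7 sits in the endosome and signals through the adaptor MyD88, which assembles the kinases IRAK4, IRAK1 and IRAK2 into a signalling complex. That complex engages the ubiquitin ligase TRAF6 and leads to activation of NF-kB and MAP kinases. In macrophages IRAK2 is known for sustaining the later part of cytokine induction, in part through the stability and translation of cytokine transcripts. The genes induced include cytokines and chemokines, and also the inhibitors that end the response, such as A20, SOCS proteins and dual-specificity phosphatases.

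No group had a deposited replicate, so the difference of responses carries no p-value of its own, and genes were counted at a log2 size of 1 (2-fold). The submitters' normalized values of untreated cells proved to be means of 2 arrays, from which a second untreated array of each genotype was recovered. The SD of the difference of responses over the genes was 0.43. When the difference was formed from untreated arrays alone (deposited minus recovered, knockout minus wild type), its SD was 0.28, and 19 genes (0.272%) passed the size. These untreated pairs also gave a limma fit on 8 arrays, in which the spread of the stimulated arrays is assumed to equal that of the untreated ones. Whether the paired arrays came from separate cultures is not given, so its p-values may measure technical spread only. Between 34.9% and 37.8% of the 25697 probes were detected per array. The lysozyme gene Lyz2 and the F4/80 gene Adgre1 were bright on all 4 arrays, with intensities of 26564 to 36528 and 11721 to 20537. Of 16 tested macrophage identity genes 14 were detected on all 4 arrays. Mertk was not detected on the treated arrays nor Marco on the untreated ones, and Itgam was dim (132 to 166). Of 13 dendritic-cell markers only the MHC class II genes H2-Aa, H2-Ab1, H2-Eb1 and Cd74 were detected, and the other 9 were not detected on any of the 4 arrays. The summed intensity of all 13 markers was 16664 after R848 and 14707 untreated in the knockout, against 7109 and 4627 in wild type. The 4 detected genes differed with genotype, and their differences of responses lay between -0.65 and -0.26. In such bulk RNA, fewer cells of a type and less RNA per cell cannot be told apart. No tested member of the 8 marker sets of other cell types passed the size, with differences from -0.72 to 0.68. Of the neutrophil markers 10 were tested and 9 were detected on all 4 arrays. Their summed intensity was 12797 after R848 and 13738 untreated in the knockout, against 20424 and 17926 in wild type. The B cell, T and NK cell, stromal and erythroid sets had 1 tested member each, and the mast cell set had none.

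Irak2 itself was measured by 2 probes, and both were detected on all 4 arrays. Of the intensities given for a genotype, here and below, the R848-treated value stands before the untreated one. The probe with the higher signal had an intensity of 835 after R848 and 378 untreated in the knockout, against 3695 and 534 in wild type. The other probe read 641 and 339 in the knockout, against 2594 and 342 in wild type. The R848-treated wild-type array was therefore the high one for each probe, while the treated knockout array was 2.67-fold and the wild-type array 7.02-fold above its untreated array at the brighter probe. The difference of responses was -1.39 and -1.77 at the 2 probes, and limma gave -1.32 (SE 0.22, adjusted p = 0.124) for the brighter one. A probe outside the deleted part does not check the genotype labels. Tlr7, the receptor for R848, had intensities of 2184 and 2476 in the knockout and 2386 and 2226 in wild type, and its difference of responses was -0.20.

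Most genes with a lower knockout response were genes that R848 induced in wild-type cells. Both responses are part of the difference that chose the genes. The classes and medians below therefore describe the chosen sets and are not separate support. Of the 6984 genes, 150 (2.15%) had a difference of -1 or lower and 82 (1.17%) a difference of 1 or higher, 3.32% in all. Among the 150 genes with a lower knockout response, 80 were still higher by 2-fold or more after R848 in each genotype, and 50 reached that size in wild type but not in the knockout. These classes did not require detection, and 21 of the 150 genes were detected only on the treated wild-type array. Gbp5 and Il27 thus count among the 80 although no knockout array detected them. The median response of the 150 genes was 1.04 in the knockout and 2.65 in wild type. The 82 genes on the other side were mostly genes that R848-treated wild-type cells held at a lower level: 35 were lower by 2-fold or more in each genotype and 35 in wild type but not in the knockout. Their median response was -0.75 in the knockout and -1.95 in wild type. Over all tested genes the SD of the response was 0.74 in the knockout and 0.95 in wild type. Over the same genes the median difference was 0.05, and 0.07 when arrays were scaled to a common median.

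**Figure D1:**
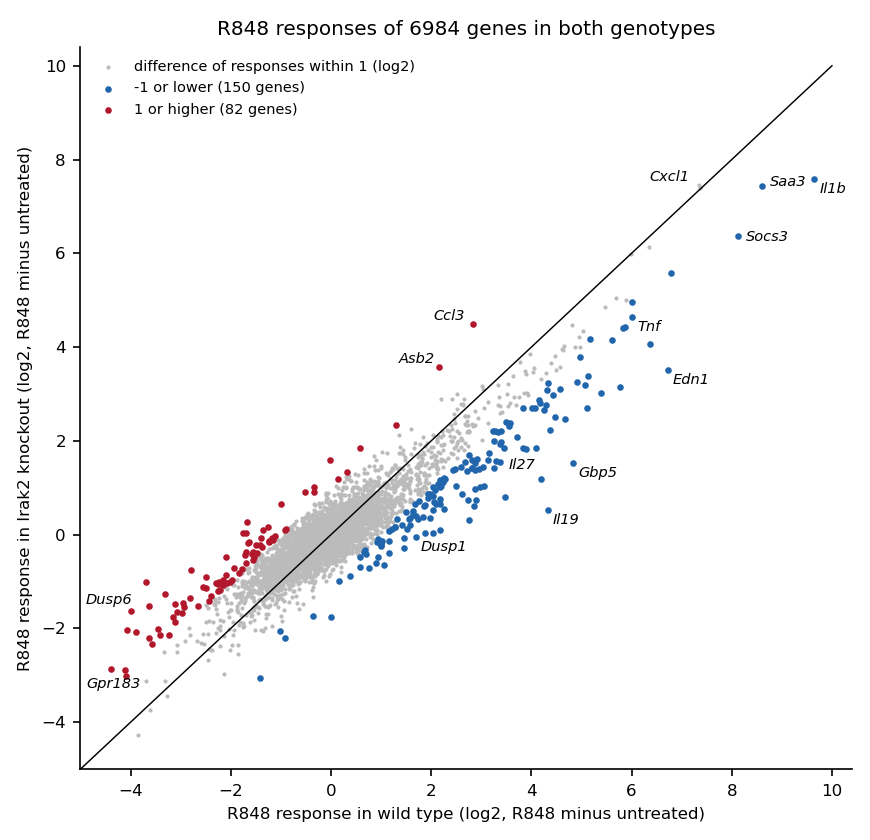
The R848 response of each of the 6984 tested genes in the knockout (vertical axis, log2) is plotted against that in wild type (horizontal axis, log2), with the line of equal responses. The 150 blue points lie at least 1 below the line and the 82 red points at least 1 above it, and most blue points have wild-type responses above 1 while most red points have responses below 0.

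A difference of responses can lie on the treated or on the untreated arrays. Of the 150 genes, 89 had a knockout value lower than wild type by 2-fold or more after R848 without an opposite difference of that size in untreated cells. In 11 genes the untreated knockout value was higher by 2-fold or more and the treated one was not lower by that size, and Ch25h met both descriptions. The other 49 met neither. Of the 82 genes, 41 had a knockout value higher by 2-fold or more after R848 without being lower by that size in untreated cells, 7 the reverse (lower untreated, not higher by that size after R848), and 34 neither. The CpG B arrays share no array with this comparison. On them the median knockout minus wild-type difference was 0.13 for the 150 genes (quartiles -0.18 and 0.48) and -0.24 for the 82 genes (quartiles -0.55 and 0.17), beside -1.23 and 1.00 after R848. The R848 values were read on arrays that chose the genes, which by itself moves them away from 0. The CpG B values were not, so the contrast does not show a difference between the ligands.

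Promoter sequences of 5 genes are shown because they carry the comparison: Il19, Gbp5 and Edn1 had the largest lower differences among genes called by limma, Il6 is the prototype of an inducible cytokine gene, and Cxcl1 had nearly equal responses in both genotypes. Each is the RefSeq window of assembly GRCm38.p6 from 250 bases before to 50 after the gene's first listed start, written 5′ to 3′ on the gene's strand. Capitals mark matches, on either strand, to the NF-kB motif (kB, GGG and TTCC with 3 bases between), the STAT motif TTCNNNGAA (GAS), the interferon-response motif (ISRE, GAAA repeated after 2 bases), the AP-1 motif TGANTCA and the CREB motif TGACGTCA.
Il19 (chr1:130940066-130940365, minus strand): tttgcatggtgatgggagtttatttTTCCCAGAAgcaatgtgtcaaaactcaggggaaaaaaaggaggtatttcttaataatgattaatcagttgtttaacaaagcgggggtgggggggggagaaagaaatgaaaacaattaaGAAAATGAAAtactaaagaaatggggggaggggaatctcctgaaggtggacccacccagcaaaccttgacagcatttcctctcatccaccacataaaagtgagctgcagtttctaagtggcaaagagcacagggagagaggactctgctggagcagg
Gbp5 (chr3:142496684-142496983, plus strand): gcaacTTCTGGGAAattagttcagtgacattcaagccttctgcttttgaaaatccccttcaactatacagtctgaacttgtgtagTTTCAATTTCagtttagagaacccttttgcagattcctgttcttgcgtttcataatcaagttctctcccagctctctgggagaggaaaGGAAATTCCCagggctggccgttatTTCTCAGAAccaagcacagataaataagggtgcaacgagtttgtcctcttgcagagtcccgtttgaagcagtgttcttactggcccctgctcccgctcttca
Edn1 (chr13:42301226-42301525, plus strand): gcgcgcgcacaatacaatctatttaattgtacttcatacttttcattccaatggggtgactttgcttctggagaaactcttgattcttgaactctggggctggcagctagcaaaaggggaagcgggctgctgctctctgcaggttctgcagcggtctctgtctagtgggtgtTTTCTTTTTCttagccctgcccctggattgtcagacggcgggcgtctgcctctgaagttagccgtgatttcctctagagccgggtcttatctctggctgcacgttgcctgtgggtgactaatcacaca
Il6 (chr5:30012864-30013163, plus strand): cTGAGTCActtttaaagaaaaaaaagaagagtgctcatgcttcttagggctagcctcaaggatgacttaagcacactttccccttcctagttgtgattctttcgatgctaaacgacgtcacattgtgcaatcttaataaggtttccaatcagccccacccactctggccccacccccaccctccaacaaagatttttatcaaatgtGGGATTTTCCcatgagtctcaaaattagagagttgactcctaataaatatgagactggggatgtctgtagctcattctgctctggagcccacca
Cxcl1 (chr5:90890995-90891294, plus strand): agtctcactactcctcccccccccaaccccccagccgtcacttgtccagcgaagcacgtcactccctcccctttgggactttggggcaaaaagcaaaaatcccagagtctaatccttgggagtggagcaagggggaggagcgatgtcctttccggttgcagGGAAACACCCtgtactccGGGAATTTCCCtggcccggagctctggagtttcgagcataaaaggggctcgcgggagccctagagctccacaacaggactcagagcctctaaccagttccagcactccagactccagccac

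The windows of Il19 and Gbp5 each hold a GAS and an ISRE match, and Gbp5 adds a kB match and another GAS match. The Edn1 window has 1 ISRE match, Il6 has 1 AP-1 and 1 kB match, and Cxcl1 has 3 kB matches, of which a pair on opposite strands overlap in the longer run of capitals. Windows were found for 122 of the 150 genes with a lower response, 68 of the 82 with a higher one and 5789 of the 6984 tested. An ISRE match was present in 13.1% of the lower set, 1.47% of the higher set and 3.26% of all tested windows. A GAS match was present in 13.1%, 5.88% and 6.91% of these sets, a kB match in 10.7%, 7.35% and 6.22%, an AP-1 match in 10.7%, 4.41% and 5.06%, and a CREB match in 4.10%, 1.47% and 3.52%. Matches can overlap, and a window may count under several motifs. A match says only that these letters occur in the window.

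Limma called 14 of the 6984 genes (0.2%) at an adjusted p under 0.05, of which 11 (0.158%) had a lower and 3 (0.043%) a higher knockout response. An unadjusted p under 0.05 was reached by 295 genes with a lower and 339 with a higher response. No gene was called when any 1 of the 4 untreated arrays was left out, which leaves 1 residual degree of freedom, although 450 to 626 genes then had an unadjusted p under 0.05. For 9 of the 14 genes no untreated array was detected, so that their spread was measured at the floor of the scale. Each adjusted p given below belongs to the gene's limma difference, which can depart from the difference on the 4 arrays.

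The largest of the called differences was in Il19, a cytokine of the interleukin-10 family. Il19 had intensities of 14.6 after R848 and -23.9 untreated in the knockout, against 517 and -14.6 in wild type, where values below 0 come from background subtraction. It was detected only on the treated wild-type array, whose normalized value was at least 6.11-fold above untreated and at least 5.86-fold above the treated knockout. (Such a bound divides the bright value by the dim array's lowest detected signal or by the gene's own value there, whichever is higher.) The difference of responses was -3.81, and limma gave -4.30 (SE 0.19, adjusted p = 0.00415). With CpG B, read against the same untreated arrays, the Il19 responses were 0.23 in the knockout and 0.28 in wild type.

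Edn1, which encodes the vasoconstrictor peptide endothelin-1, kept a response in the knockout at a far lower level. Its intensities were 460 and 26.5 in the knockout, against 5856 and 37.0 in wild type. The treated knockout value was at least 5.16-fold above untreated and the treated wild-type value at least 58.5-fold, and after R848 the knockout was 11.2-fold lower. Limma gave -3.02 (SE 0.23, adjusted p = 0.0262), and the CpG B responses were 3.27 in the knockout and 3.61 in wild type.

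Gbp5, an interferon-inducible guanylate-binding protein that promotes inflammasome assembly, had 82.6 and 2.9 in the knockout, against 899 and 2.1 in wild type. Il27, the p28 subunit that pairs with EBI3 to form interleukin-27, had 61.9 and 3.2 in the knockout, against 555 and 2.3 in wild type. Each was detected only on the treated wild-type array, at least 9.69-fold and at least 6.26-fold above the treated knockout. Limma gave -3.28 for Gbp5 (adjusted p = 0.0262) and -3.34 for Il27 (adjusted p = 0.0334). After CpG B the responses of Gbp5 were 1.76 in the knockout and 1.51 in wild type, and those of Il27 1.76 in the knockout and 1.37 in wild type.

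The other genes called lower fell into regulators and effectors. The MAP kinase phosphatase gene Dusp2 had 266 and 42.0 in the knockout, against 1139 and 28.9 in wild type, a difference of -2.21 (limma adjusted p = 0.0334). A second Dusp2 probe gave -1.48. The transcription factor gene Nfil3 had 1059 and 660 in the knockout, against 5015 and 685 in wild type, so the treated wild-type array stood apart from the other 3 (difference -1.92, adjusted p = 0.0493). The metallothionein gene Mt2 had 87.4 and 54.7 in the knockout, against 629 and 86.7 in wild type (difference -2.15, adjusted p = 0.0421). Its CpG B responses were 0.35 in the knockout and 0.22 in wild type, and those of Nfil3 were 0.42 in the knockout and 0.39 in wild type. Limma gave -2.06 for the NADPH oxidase gene Nox1 (adjusted p = 0.0334) and -3.08 for Shisa3 (adjusted p = 0.0145). It gave -1.77 for the aggrecanase gene Adamts4 (adjusted p = 0.0493). Their differences on the 4 arrays were -2.01, -2.08 and -1.74. These genes were dim, with intensities of 210, 97.3 and 162 on the treated wild-type array and no detection on the other 3. Adamts4 was the 11th call, outside the naming rule, and is named after its value was seen.

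Fcgr2b, the inhibitory Fc gamma receptor, was the exception among the calls in where the difference lay. Its intensities were 4077 and 1336 in the knockout, against 4943 and 327 in wild type. The treated arrays were close, with a log2 difference of -0.10, whereas the untreated knockout value was 1.95 higher. Limma gave -2.14 (adjusted p = 0.041), and 2 other Fcgr2b probes gave differences of -1.02 and -2.41.

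**Figure D2:**
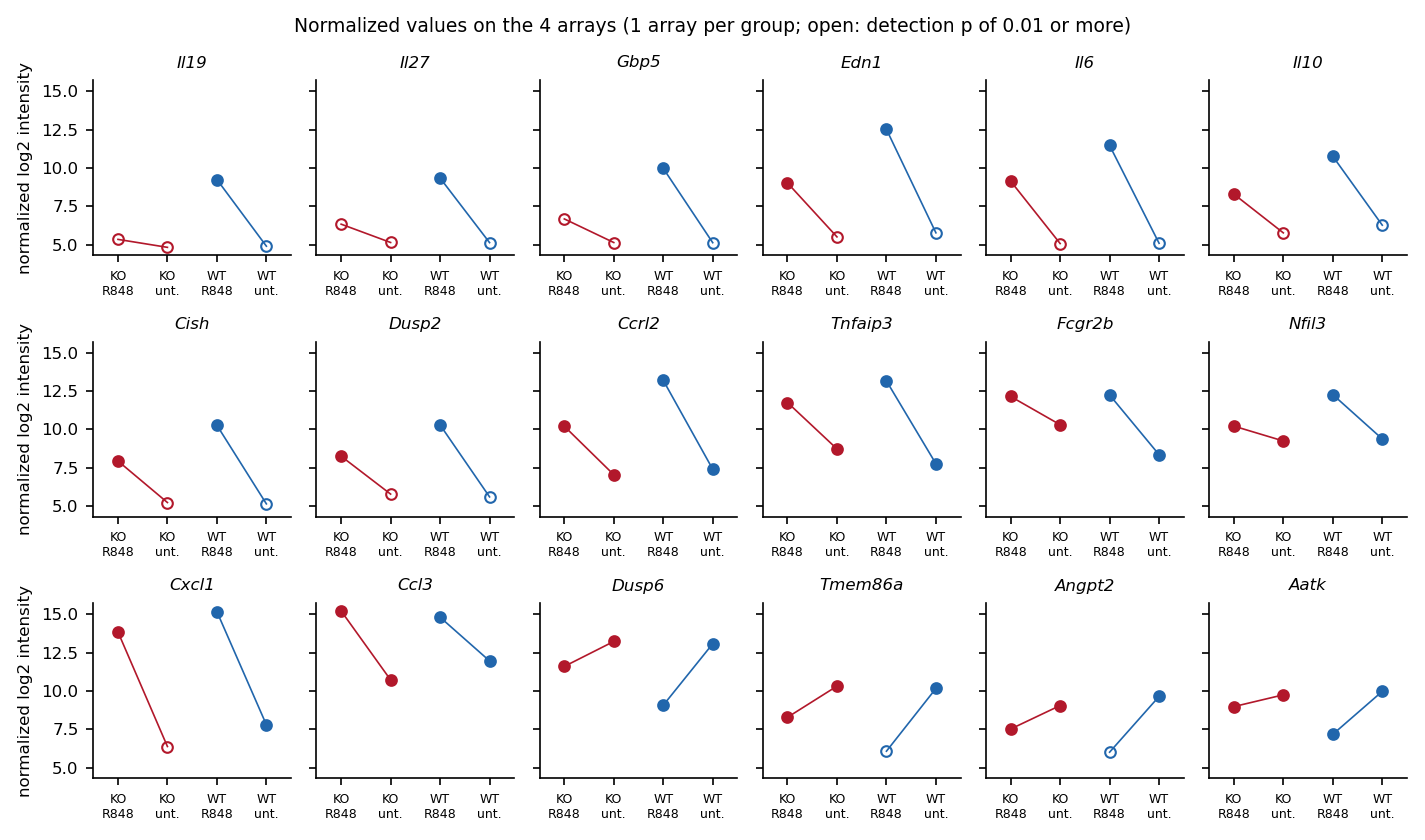
Normalized log2 intensity of 18 genes on the 4 arrays, with the R848-treated and untreated knockout arrays in red, the wild-type arrays in blue and open circles where the detection p was 0.01 or more. The line from treated to untreated is flatter in the knockout for the first 12 genes, nearly equal in both genotypes for Cxcl1, steeper in the knockout for Ccl3 and flatter again for the last 4 genes, which were lower after R848.

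Inflammatory cytokines had the lowest median of the 21 gene lists examined. The list also holds Edn1, whose product endothelin-1 is a vasoconstrictor peptide and not a cytokine. Of the list's 18 tested genes, Edn1 among them, 12 were below -1 and none above 1, and 17 were below 0. Of all tested genes 2.15% and 1.17% lay beyond these sizes. The list was chosen with earlier results of these data known. The list's median difference was -1.39, with median responses of 2.07 in the knockout and 3.46 in wild type. Limma called 3 of its members, Il19, Edn1 and Il27. Interleukin-6 (Il6) had 497 and -2.2 in the knockout, against 2774 and -0.5 in wild type. Both treated arrays were above background and the knockout was 5.00-fold lower, for a difference of -2.30 (limma adjusted p = 0.0693). Its CpG B responses were 3.72 in the knockout and 3.61 in wild type.

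Interleukin-10 (Il10), an anti-inflammatory cytokine, had 273 and 40.9 in the knockout, against 1635 and 64.3 in wild type, a difference of -1.96 (adjusted p = 0.144). Interleukin-1 beta (Il1b) reached high intensities in either genotype after R848, with 8746 and 33.7 in the knockout, against 27927 and -3.0 in wild type. The treated knockout value was at least 95.7-fold above untreated, the treated wild-type value at least 269-fold, and the difference was -2.06 (adjusted p = 0.146). Tumour necrosis factor (Tnf) had 11890 and 552 in the knockout, against 27430 and 406 in wild type, and the knockout was 2.03-fold lower after R848 (difference -1.37, adjusted p = 0.0885). Interleukin-1 alpha (Il1a, -1.41), the costimulatory ligand Tnfsf9 (-1.43), the growth factor Csf1 (-1.36) and the interleukin-1 receptor antagonist Il1rn (-1.17) were the other members below -1 with positive responses in each genotype. Csf1 was detected only on the treated wild-type array, so its knockout response rests on values below background.

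Interleukin-15 (Il15) was the list's one member with responses of opposite sign. Its intensities were 614 and 1157 in the knockout, against 3248 and 1614 in wild type. The response was -0.65 in the knockout and 1.06 in wild type, the difference was -1.71 (limma adjusted p = 0.0693), and 2 other probes gave -1.77 and -1.43. The members within the size included Csf3 (-0.58), Ebi3 (-0.39), the activin subunit gene Inhba (-0.12) and oncostatin M (Osm, 0.28). Ebi3 had 2220 and 591 in the knockout, against 4505 and 767 in wild type, so the 2 subunit genes of interleukin-27 differed in size of difference.

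Chemokine genes had differences on either side of 0. Of 15 tested, 3 were below -1 (Cxcl9, Ccl5 and Ccl12) and 2 above 1 (Ccl3 and Ccl9), and the median was -0.03. Together 33.3% of the list passed the size, beside 3.32% of all tested genes. The neutrophil chemoattractant gene Cxcl1 had 13397 and 77.8 in the knockout, against 36832 and 217 in wild type. The knockout was lower on both arrays, by 1.32 after R848 and 1.41 untreated, so the responses of 7.45 and 7.35 differed by 0.10. The treated wild-type value of Cxcl1 lay near that array's highest intensity (40224), and whether the top of the scale limits the response was not tested. On the recovered untreated arrays Cxcl1 was 5.81 (log2) in the knockout and 6.24 in wild type. Cxcl2 had 9171 and 48.5 in the knockout, against 25095 and 137 in wild type, and a difference of 0.03. For both genes the deposited untreated knockout array was not above background. With the recovered untreated arrays in place of the deposited ones, the Cxcl1 difference ran from -1.46 to 0.68 and that of Cxcl2 from -1.08 to 0.41.

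Ccl3, a chemokine for monocytes and T cells, had 33764 and 1770 in the knockout, against 29707 and 4081 in wild type. The treated values were close and the untreated knockout value was lower by 1.24, for a difference of 1.64 (limma adjusted p = 0.28). The treated knockout value lay near that array's highest intensity (34572). The neighbours of Ccl3 in function, Ccl4 (0.76) and Ccl9 (1.02), had differences in the same direction. The T-cell chemoattractant Ccl5 had 4681 and 105 in the knockout, against 22019 and 182 in wild type, with a difference of -1.20. The interferon-inducible chemokine Cxcl9 was detected only on the treated wild-type array (difference -1.59), while Cxcl10 had 1171 and 53.7 in the knockout, against 6914 and 199 in wild type, and a difference of -0.69.

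Negative feedback regulators formed the list with the largest number below -1 after the cytokines. Of 23 tested, 10 (43.5%) were below -1 and none above 1, the median was -0.81, and limma called Dusp2. Of all tested genes 2.15% were at -1 or lower. Among the 260 genes that CpG B induced 2-fold or more in wild type (described below), 29.2% were. Tnfaip3, which encodes the ubiquitin-editing enzyme A20, had 3110 and 459 in the knockout, against 9635 and 213 in wild type. The treated knockout array was lower and the untreated one higher than wild type, which gave -2.37 (limma adjusted p = 0.0778). The cytokine signalling inhibitor Cish had 210 and 9.8 in the knockout, against 1125 and 3.5 in wild type (-2.41, adjusted p = 0.124). Socs3, of the same family, had 9840 and 133 in the knockout, against 27937 and 84.5 in wild type (-1.76, adjusted p = 0.362). The mRNA decay factors Zc3h12a (-1.45) and Zfp36 (-1.38), the stress-inducible gene Gadd45b (-1.45) and Socs1 (-1.71) were also below -1. Irak3, an inhibitory member of the IRAK family, had 5251 and 1173 in the knockout, against 6843 and 1318 in wild type, and a difference of -0.06. The phosphatase gene Dusp4 (0.86) lay on the opposite side.

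The list of effector enzymes also holds genes that do not encode enzymes, such as Saa3. It had 8 of 22 members (36.4%, Saa3 among them) below -1, none above 1 and a median of -0.65. The share was 2.15% of all tested genes and 29.2% of the CpG B-induced genes. Cholesterol 25-hydroxylase (Ch25h) had 1492 and 1417 in the knockout, against 3334 and 505 in wild type. The deposited knockout arrays were nearly equal, with a response of 0.31 against 2.76 in wild type, and the difference was -2.45 (limma adjusted p = 0.221). The untreated knockout value (log2) was 10.39 on the deposited and 9.73 on the recovered array. Over the combinations of untreated arrays the difference ran from -3.26 to -1.79. The complement factor gene Cfb had 166 and 19.4 in the knockout, against 784 and 19.1 in wild type (-2.14, adjusted p = 0.0737). Inducible nitric oxide synthase (Nos2, -1.60), the prostaglandin synthase genes Ptgs2 (-1.44) and Ptges (-1.37), ceruloplasmin (Cp, -1.94), the phosphodiesterase Pde4b (-1.28) and the acute-phase gene Saa3 (-1.17) completed the set. Arginase-1 (Arg1), which competes with nitric oxide synthase for arginine, was within the size at 0.44.

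Among 29 interferon-stimulated genes 6 (20.7%) were below -1, none was above 1 and the median was -0.62. This share lay above the 2.15% of all tested genes and below the 29.2% of CpG B-induced genes. Of the 6 genes, 4 were guanylate-binding proteins. Beside Gbp5, Gbp3 had 1439 and 184 in the knockout, against 4541 and 120 in wild type (-1.88, limma adjusted p = 0.143), Gbp7 differed by -1.82 and Gbp2 by -1.10. The others were Mx1 (-1.44) and the exonuclease gene Isg20 (-1.54). The antiviral genes Isg15 (-0.72), Ifit2 (-0.60), Ifit3 (0.24) and Rsad2 (0.06) were within the size. Rsad2 had 6991 and 961 in the knockout, against 20472 and 2447 in wild type, so the knockout was lower by 1.34 (log2) after R848 and by 1.41 untreated.

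The transcription factor list of NF-kB and IRF members had 3 of 11 (27.3%) below -1, Nfkbiz, Rel and Irf1. The share was 2.15% of all tested genes and 29.2% of the CpG B-induced genes. Nfkbiz encodes the nuclear cofactor IkB-zeta, which is needed for part of the secondary response, and had 3456 and 398 in the knockout, against 15751 and 427 in wild type (-1.76). The subunit gene Rel had 229 and 84.1 in the knockout, against 620 and 68.6 in wild type (-1.55). Irf1 had 3455 and 1735 in the knockout, against 10377 and 2115 in wild type (-1.05), and 4 other Irf1 probes ranged from -2.06 to -0.51. Rela, the subunit most often paired with p50, had a difference of 0.00.

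Surface molecules and survival genes followed. Of 15 costimulatory and adhesion molecules 4 (26.7%) were below -1, with a median of -0.72. They were the activation marker Cd69 (-1.66), the integrin subunit Itgav (-1.54), Cd83 (-1.37) and Cd40 (-1.32). Cd40 had 3728 and 687 in the knockout, against 9978 and 601 in wild type, whereas Cd86 had 581 and 403 in the knockout, against 306 and 224 in wild type, with a difference of 0.13. Of 12 survival genes 3 (25%) were below -1 (Gadd45a, Bcl2l11 and Birc3). Both shares lay above the 2.15% of all tested genes and below the 29.2% of CpG B-induced genes. The chemokine-binding receptor gene Ccrl2, in none of the lists, had the largest difference among genes detected on all 4 arrays. It had 1052 and 134 in the knockout, against 9815 and 161 in wild type, with the knockout 7.91-fold lower after R848 and a difference of -2.63 (limma adjusted p = 0.0576).

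Other genes named by the rule on the lower side were the kinase gene Map3k8 (-1.99), whose product TPL2 activates ERK downstream of Toll-like receptors, the channel gene Calhm6 (-2.67), the threonine aldolase gene Tha1 (-1.74), and the corepressor gene Bcor (-1.73). Map3k8 had 787 and 262 in the knockout, against 3093 and 213 in wild type. Calhm6 had 102 and 62.7 in the knockout, against 673 and 55.9 in wild type. The treated wild-type array was the high one for each of them.

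**Figure D3:**
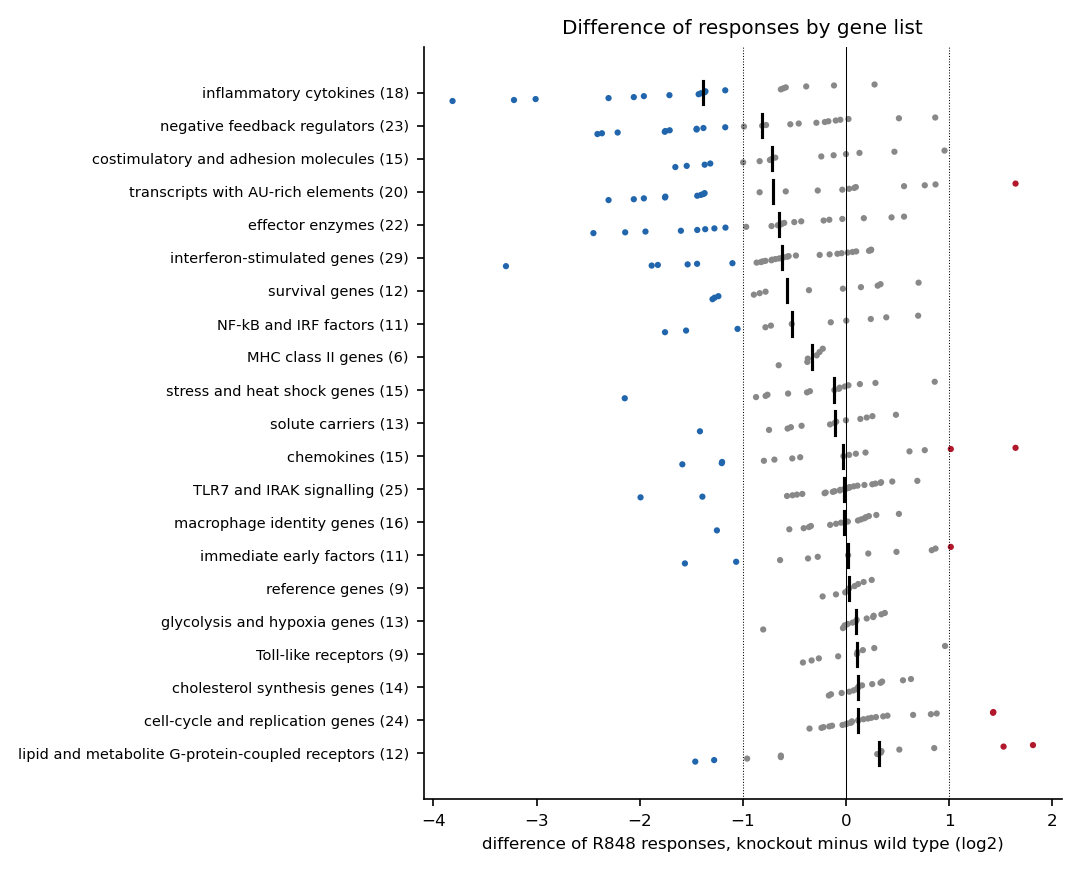
Difference of R848 responses (knockout minus wild type, log2) for each tested member of the 21 gene lists, with the number tested in brackets and a black bar at each list's median. Blue and red points lie beyond the dotted lines at -1 and 1. The inflammatory cytokines have the lowest median (-1.39), and the medians of the signalling, receptor, metabolic and reference lists lie near 0.

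On the higher side, the largest difference among genes detected on all 4 arrays was in Dusp6, which encodes a cytoplasmic phosphatase of ERK. Its intensities were 2761 and 9556 in the knockout, against 459 and 8837 in wild type. The treated knockout array was 3.08-fold below its untreated array and the treated wild-type array, the lowest of the 4, was 15.98-fold below its own. The difference was 2.38 (limma adjusted p = 0.081), and 2 other detected probes of the gene gave 0.20 and 2.52, so the probes disagreed. Tmem86a, a lysoplasmalogenase gene, had 271 and 1340 in the knockout, against 44.6 and 1190 in wild type, where the treated array was not above background. Its response was higher in the knockout by 2.06 in limma (SE 0.19, adjusted p = 0.0334). Angpt2, the Tie2 ligand angiopoietin-2, had 154 and 571 in the knockout, against 41.8 and 821 in wild type (1.99 in limma, adjusted p = 0.0493). The third gene called higher, Pwwp2b, had 73.6 and 217 in the knockout, against -2.7 and 182 in wild type (2.38 in limma, adjusted p = 0.0334), with both treated arrays below the detection threshold.

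A further 9 genes named on this side were detected on all 4 arrays, several of them in signalling and trafficking. The sorting nexin gene Snx30 had 334 and 989 in the knockout, against 97.3 and 1371 in wild type (2.05). The tyrosine kinase gene Aatk had 448 and 925 in the knockout, against 107 and 1040 in wild type (2.03). The lysophosphatidic acid receptor gene Lpar6 had 545 and 2709 in the knockout, against 123 and 2511 in wild type (1.81). For each of them the untreated arrays were close and the treated wild-type array was lowest. Cmtm6 (1.72) and Slco4a1 (1.78) had knockout responses of 0.02 and 0.04, against -1.69 and -1.75 in wild type. The late endosomal GTPase Rab7b (1.60), the homeobox factor Hhex (1.47), the thioredoxin-interacting protein Txnip (1.44) and the cell-cycle factor E2f2 (1.43) also had less negative responses in the knockout. For Txnip the untreated knockout value was 1.23 lower than wild type. The limma adjusted p of these 9 genes ranged from 0.0693 to 0.596.

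Among genes detected on the treated arrays and on no untreated array, 6 with a higher treated value in the knockout were named by the rule, and 1 of them passed the size. Asb2, a subunit of a ubiquitin ligase, had 413 and 13.8 in the knockout, against 134 and 12.4 in wild type, a difference of 1.41 (limma adjusted p = 0.215). Its CpG B responses were 4.13 in the knockout and 2.60 in wild type. The inhibitory receptor gene Btla (0.65), Apol7c (0.81), the transporter gene Slc6a12 (0.70), the nucleotide receptor gene P2ry2 (0.43) and the scavenger receptor gene Marco (0.12) lay within the size.

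**Figure D4:**
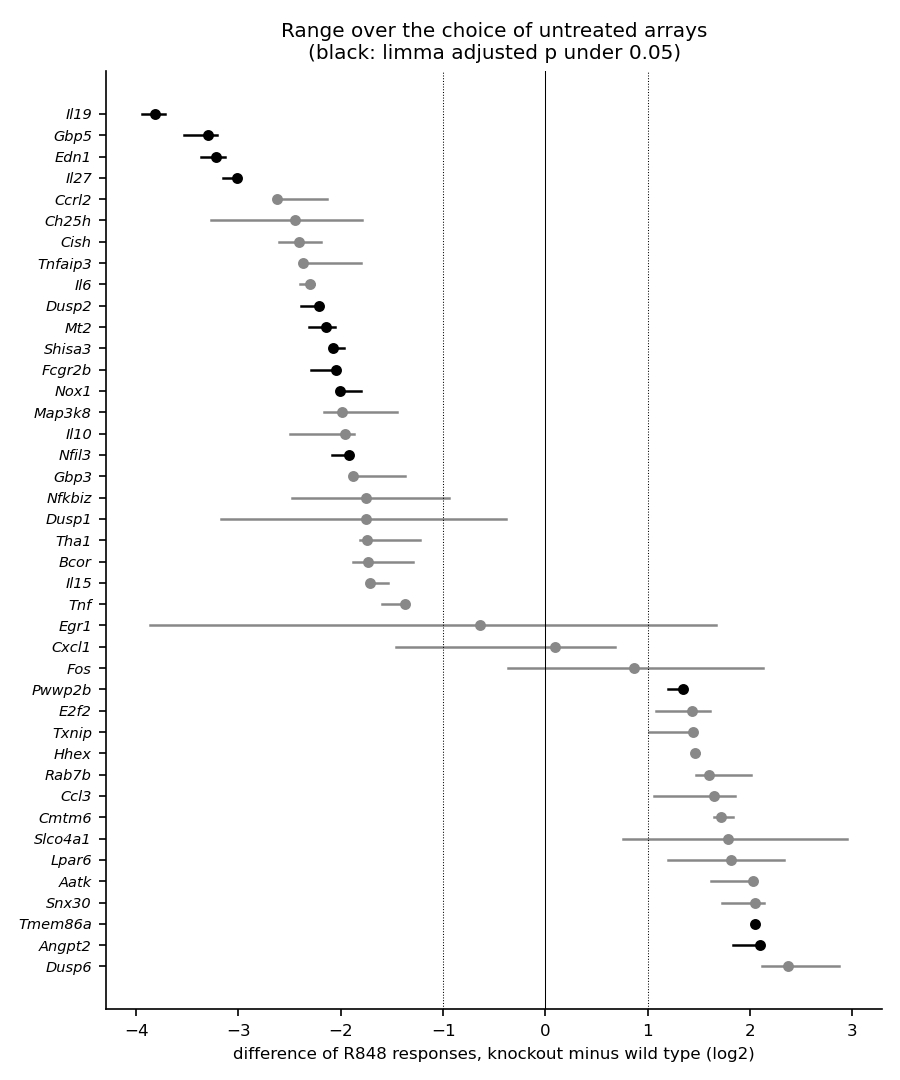
Difference of R848 responses (knockout minus wild type, log2) for 41 genes, with a point for the deposited arrays and a bar for the range over the 4 combinations of deposited and recovered untreated arrays. Black marks the genes called by limma. Bars are short for Il19, Edn1 and Hhex and long for Egr1 (-3.86 to 1.67), Dusp1 and Fos.

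Some differences depended on which untreated array was used. Egr1 had a difference of -0.64 that ran from -3.86 to 1.67 over the 4 combinations of untreated arrays, Fos one of 0.87 that ran from -0.36 to 2.12, and the phosphatase gene Dusp1 one of -1.75 that ran from -3.17 to -0.38. The immediate early list had Egr2 and Junb below -1, Klf2 above 1 and a median of 0.02 over 11 genes. Thus 27.3% of it passed the size, beside 3.32% of all tested genes. Among the costimulatory molecules Cd69 (-2.45 to -0.72), Itgav (-1.54 to -0.58), Cd83 (-1.37 to -0.75) and Cd40 (-1.59 to -0.80) each came within the size in some combination. So did Gadd45b (-2.11 to -0.53), Zfp36 (-1.66 to -0.93), Nfkbiz (-2.48 to -0.94), Irf1 (-1.05 to -0.82), Gbp2 (-1.10 to -0.90), Saa3 (-1.22 to -0.89), Ccl12 (-1.76 to -0.56), Bcl2l11 (-1.40 to -0.98), Egr2 (-2.10 to -0.70), Junb (-1.07 to -0.50), Klf2 (0.24 to 1.93), Ccl9 (0.96 to 1.10) and Slco4a1 (0.76 to 2.95). The 4 costimulatory members past the size thus all depend on the untreated array used. Of the 150 genes on the lower side, 76 were at -1 or below in all 4 combinations and all 150 kept a negative sign. Of the 82 on the other side, 36 were at 1 or above in all 4 and 81 kept a positive sign.

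The median of the signalling list was -0.02. Of 25 genes acting between Toll-like receptor 7, IRAK kinases and their targets, 2 were below -1, Map3k8 and Irak2, and none was above 1, beside 3.32% of all tested genes past the size in either direction. The adaptor Myd88 had a difference of -0.48, the kinase Irak1 -0.57, the ligase Traf6 0.11, the kinase Map3k7 (TAK1) -0.02 and the trafficking protein Unc93b1 0.01. None of 9 Toll-like receptor and co-receptor genes passed the size, from Tlr2 at -0.42 to Tlr13 at 0.96. Cholesterol synthesis genes (median 0.12 over 14), glycolysis and hypoxia genes (0.10 over 13) and reference genes (0.03 over 9) had no member past the size. Cell-cycle and replication genes had medians of -1.23 for the response in each genotype. Of 24 tested, 2 (8.33%) had a difference above 1, Cdt1 and E2f2, beside 1.17% of all tested genes.

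Genes chosen on arrays that the comparison did not use showed lower knockout responses among induced genes and higher ones among lowered genes. The choice rested on wild-type arrays alone, and whether the recovered array came from a separate culture is not given. A wild-type baseline shared by both untreated arrays would enter the choice and the difference alike, so the sets are not independent support. The 260 genes that CpG B held at 2-fold or more above the recovered untreated array in wild type had a median R848 response of 1.98 in the knockout and 2.59 in wild type. Their median difference was -0.59, 231 of them (88.8%) were below 0 and 29.2% at -1 or lower, beside a median of 0.05, 43.5% and 2.15% over all tested genes. The 70 genes that CpG B held at 2-fold or more below that array had median R848 responses of -1.66 in the knockout and -2.18 in wild type. Their median difference was 0.51, 51 (72.9%) were above 0 and 32.9% at 1 or higher, beside 56.5% and 1.17% of all tested genes.

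**Figure D5:**
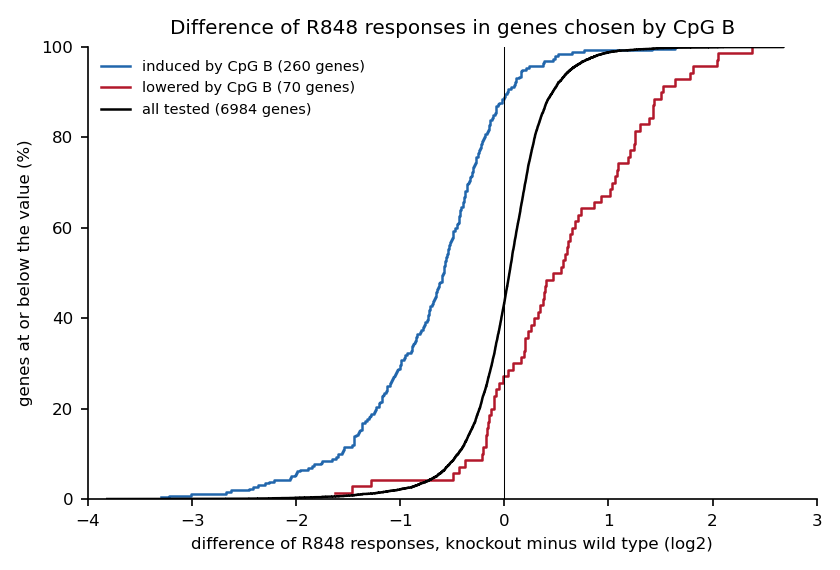
Cumulative share of genes (vertical axis, %) at or below each difference of R848 responses (horizontal axis, knockout minus wild type, log2). The curve of the 260 genes induced by CpG B in wild type lies left of the curve of all 6984 tested genes (median -0.59 against 0.05), and that of the 70 lowered genes lies right of it (median 0.51).

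At the threshold itself the differences were continuous. Just inside it lay Snapc1 (-1.00008), Lox (-1.00327), Iqce (1.00584) and Agfg2 (1.01019), and just outside it Zfp11 (-0.999826), Tgm2 (-0.998971), Sesn1 (0.997949) and Slamf7 (-0.997588). Of the 232 genes past the size, 40 had another detected probe, which had the same sign in 38 and passed the size in 22.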

How the data were processed

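Macrophages of 6 groups (2 genotypes, each untreated or with R848 or CpG B) were each hybridised to 1 bead array (Illumina mouseRef-8 v2). The authors deposited an intensity per probe without normalization between arrays, and per the file headers each intensity has its detection p-value. BeadStudio is named in the submitters' processing notes, with no version. Per array, 33.4% to 34.4% of intensities lie below 0, as after background subtraction. The authors also deposited processed intensity values, which the values show to be linear and quantile normalized, with column medians of 24.2 to 24.4. In stimulated columns 99.7% to 99.8% of values matched the deposited array after quantile normalization, to 0.5 units, but in untreated columns 6.10% to 6.27% did. Taking the untreated columns as means of 2 arrays placed 99.7% of the recovered values within 0.5 units of the common distribution (means of 3: 66.6% to 67.2%), so 2 times the column less the deposited array was used as a second untreated array of each genotype.

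The software was R 4.3.3 and limma 3.58.1, whose neqc function corrected background by detection p-value, added an offset of 16, quantile normalized the 6 arrays and took log2. The platform annotation named 1 gene for 23978 of 25697 probes, and a gene took its probe with the highest mean. Of 23978 named probes 23962 matched a RefSeq gene identifier.

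The limma fit took 6 group means over 8 arrays (2 residual degrees of freedom) on log2 of the processed values, floored at 0, plus 16, with eBayes and Benjamini-Hochberg adjusted p-values over 6984 genes. It was tested on simulated data, which cannot show whether the stimulated arrays vary as the untreated pairs do. The 21 gene lists, the 8 marker sets, the rules and the genes shown were chosen with earlier results of these data known. Named were, per direction, the 12 genes detected on all 4 arrays with the largest difference, 6 detected on both treated but no untreated array with the largest treated difference, the 10 smallest adjusted p-values, list members, Irak2 and Tlr7, of which 1 gene is not reported here. The first 2 rules required the same sign in the processed values and under median scaling. Precision is limited by the number of arrays. Alternatives covered background correction, offset, scaling, detection filter, probe choice, processed values and the untreated arrays.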

Additional observations from a re-analysis of the deposited data

Results flagged for a closer look

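The R848 responses of 14 genes differed between knockout and wild type in limma at an adjusted p under 0.05. The log2 differences, knockout minus wild type, were -4.30 for Il19, -3.34 for Il27, -3.28 for Gbp5, -3.08 for Shisa3, -3.02 for Edn1, -2.38 for Dusp2, -2.14 for Mt2, -2.14 for Fcgr2b, -2.06 for Nox1, -1.95 for Nfil3 and -1.77 for Adamts4. On the other side they were 2.38 for Pwwp2b, 2.06 for Tmem86a and 1.99 for Angpt2. Over the alternatives to this fit the adjusted p of Il19 ranged from 7.1e-05 to 0.121, and that of Edn1 from 0.000262 to 0.231. The highest values came from leaving out an untreated array.

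In 3 genes that were detected on all 4 arrays and past the size, the single-array responses had opposite signs, each larger than 2 SD of that genotype's untreated pair (SD 0.25 in each). Il15, a cytokine for natural killer cells and memory T cells, had responses of -0.65 in the knockout and 1.06 in wild type, a difference of -1.71. Ikzf1, which encodes the lymphoid transcription factor Ikaros, had -0.60 in the knockout and 0.91 in wild type, a difference of -1.50. Bcl2l11, which encodes the cell-death protein BIM, had -0.69 in the knockout and 0.58 in wild type, a difference of -1.27. Limma's adjusted p for the difference was 0.0693 for Il15, 0.371 for Ikzf1 and 0.195 for Bcl2l11. Ikzf1 lies outside the naming rule and was named after its value was seen.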

How the results depend on the processing

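The labels carry no replicate numbers, so the main fit paired no arrays. The deposited-minus-recovered differences of untreated knockout and wild-type cells correlated across genes (Pearson r = 0.377, genes not being independent replicates), and a block for these array sets is given below. The counts of 82 genes higher and 150 lower were 149 higher without background correction, 50 higher at an offset of 50, and 42 higher and 65 lower among genes detected on all 4 arrays. With a recovered in place of a deposited untreated array they ranged from 89 to 127 higher and from 119 to 201 lower, the highest with the wild-type array replaced. The median difference of genes induced by CpG B (-0.59) was -0.48 among genes detected on all 4 arrays and ranged from -0.74 to -0.56 over the replaced arrays. That of the lowered genes (0.51) was 0.69 without background correction, 0.36 at an offset of 50, 0.70 in the processed values and 0.40 with no detection filter, and ranged from 0.45 to 0.61 over the replaced arrays. Wherever the wild-type array was replaced (-0.74 and 0.61 among them), the array that chose these genes enters the comparison, so these values are not independent of the choice.

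The limma counts of 3 genes higher and 11 lower were 27 and 23 among genes detected on both untreated arrays, 164 and 208 with no detection filter, 9 and 27 at an offset of 50, 32 and 66 under median scaling, and 15 and 27 at an adjusted p under 0.1. With an intensity trend 8 were higher. Alternatives added after the data were seen gave 18 and 56 (neqc values) and 35 and 63 (a block for deposited against recovered arrays, 1 residual degree of freedom). Leaving out an untreated array gave 0 to 0 in either direction. All 14 genes stayed called under median scaling, the block and the neqc values, 13 at an offset of 50 (without Pwwp2b) and 13 with the trend (without Adamts4). With no detection filter 6 stayed called, and Angpt2, Dusp2, Edn1, Fcgr2b, Gbp5, Il27, Mt2 and Nfil3 did not. Among genes detected on both untreated arrays, the 5 calls that were tested stayed. Of 1356 values of 128 genes (those of the naming rule and others named here) under the alternatives, 1151 moved by less than the SD of the untreated pairs, 205 moved by more, and no difference past the size changed sign. The cause of these shifts was not tested. For genes below background, the offset sets the size of the difference.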
